A study of Homo sapiens with 18 samples.

Results

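Gene expression was compared between NCI-H1299 cells given wild-type p53 (WTp53) and cells given an empty vector, using the experiments lettered d, e and f. These letters form the second of the 2 sets of arrays in the study. NCI-H1299 is a human non-small cell lung carcinoma line that makes no p53 of its own. The comparison was chosen by its labels alone: 3 arrays of cells given WTp53 against 3 arrays of cells given the empty vector, so 6 of the 18 arrays of the series were used for it. Each plasmid also encoded green fluorescent protein from pIRES-2EGFP and was introduced by lipid transfection. Fluorescent cells were sorted, and RNA was taken 40 hours after transfection, so all groups share the transfection, the fluorescent protein and the sort, and differ in the p53 insert. The plasmid was present transiently and its level per cell was not measured. The labels call d, e and f control experiments and do not say that they were separate transfections; p-values therefore measure only the spread between these arrays, which may be technical. The other groups of the series (tethered WTp53 in the second set; WTp53, the vector and ΔNp53:WTp53 in the first set, experiments 0, 4 and 5) enter only where named.

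p53 is a transcription factor that binds paired copies of a short DNA element and raises the expression of nearby genes. Its best known targets stop the cell cycle, start apoptosis, repair DNA, alter metabolism, or switch p53 itself off again. Many genes of DNA replication and mitosis fall when p53 is active, mostly through the cyclin-dependent kinase inhibitor p21 and the repressor complexes that it frees. Because NCI-H1299 cells lack p53, the vector arrays show these genes without it.

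The arrays were Affymetrix Gene arrays, and every level below is a log2 intensity as deposited, so that a difference of 1 is a doubling. Of 33297 probe sets, 19460 carry exactly 1 gene symbol and were tested, which covers 18417 genes. Array medians over all 33297 rows lay between 7.01 and 7.05. Over the tested probe sets they were 7.68 to 7.69 in WTp53 arrays and 7.64 to 7.65 in vector arrays. Median centring below uses the medians over the tested probe sets. Arrays of WTp53 cells correlated with each other at 0.9983 to 0.9986 over these probe sets and vector arrays at 0.9982 to 0.9984, whereas arrays of different groups correlated at 0.984 to 0.986. The median SD of a probe set was 0.05 in WTp53 and 0.0557 in vector arrays. Of the 5 markers of the line, VIM read 12.62 to 12.63 in WTp53 arrays and 12.41 to 12.42 in vector arrays. KRT18 was at 11.9 to 12.01 in both groups. KRT8 read 11.11 to 11.21 in WTp53 arrays and 10.6 to 10.73 in vector arrays, and CDH2 10.09 and 9.63 to 9.66. KRT19 was near the array medians over all rows, at 6.91 to 7.19 over the 6 arrays. In the limma fit below, VIM, KRT8 and CDH2 were higher with WTp53. Markers of other cells were mixed in level. PTPRC read 4.09 to 4.22 in WTp53 arrays and 4.11 to 4.12 in vector arrays, and DCN and LUM 3.89 to 4.07 and 3.92 to 4.13, among the lowest values. The median of 9 leukocyte markers was 7.2 to 7.39 in WTp53 arrays and 7.4 to 7.47 in vector arrays, with CD68 at 11.24 to 11.89 over the 6 arrays and ITGAM at 8.74 to 9.17. The median of 10 fibroblast and endothelial markers was 6.21 to 6.27 in WTp53 arrays and 6.22 to 6.31 in vector arrays, with COL1A1 highest at 7.7 to 7.94.

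In the limma fit of the 6 arrays, 3579 probe sets were higher with WTp53 (18.4% of those tested) and 3790 were lower (19.5%) at a Benjamini-Hochberg adjusted p under 0.05. Most shifts were small: 869 of the rises and 426 of the falls reached 1.5-fold, 321 and 61 reached 2-fold, and 40 and 2 reached 4-fold. All 3 WTp53 arrays lay above all 3 vector arrays for 22.1% of the probe sets and below them for 24.7%. Of the 7369 called probe sets, 7347 had groups without overlap, so separate groups add little to a call. The median difference over all probe sets was −0.02. Of the calls, 48.6% were rises. With each array centred on its median over the tested probe sets, 3052 rises and 5031 falls were called, so that 37.8% were rises. The median difference over all probe sets was then −0.06. A single gene with 3 against 3 arrays cannot fall below an exact permutation p of 0.1.

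Every gene list below was chosen, with its members, when earlier results of these data were known. Counts over a list therefore describe it and do not test it. p53 targets of cell cycle arrest and p53 feedback rose almost as a block: 25 of 29 measured genes were higher and 1 was lower. The median difference was 0.86, against −0.02 over all probe sets. CDKN1A, which encodes p21, read 11.72, 11.71 and 11.70 in WTp53 cells, against 8.67, 8.44 and 8.63 in vector cells. MDM2, the ubiquitin ligase that degrades p53, read 12.53, 12.58 and 12.58 in WTp53 cells, against 10.53, 10.61 and 10.23 in vector cells. For both genes the groups stood far apart, and the vector arrays spread more than the WTp53 arrays. CDKN1A was 8.75-fold higher (log2 difference 3.13 ± 0.06 SE, limma adjusted p = 3.94e-07) and MDM2 4.31-fold higher (2.11 ± 0.09, adjusted p = 5.44e-06).

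The other arrest and feedback genes with the smallest p were SESN1, GDF15, RRAD and TP53INP1. SESN1, a sestrin that restrains mTOR complex 1 under stress, read 10.08, 10.06 and 10.14 in WTp53 cells, against 7.23, 7.25 and 7.34 in vector cells (2.82 ± 0.04). GDF15, a secreted stress hormone of the TGF-beta family, read 10.08, 10.15 and 10.13 in WTp53 cells, against 7.51, 7.46 and 7.59 in vector cells (2.60 ± 0.04). In both genes the arrays of each group lay close together. RRAD, a Ras-related GTPase, was higher by 2.65 ± 0.06, and TP53INP1, a nuclear protein that helps p53, by 3.09 ± 0.09 (limma adjusted p from 3.33e-07 to 1.01e-06 over these 4 genes). PPM1D, a phosphatase that switches damage signalling off, was a called feedback gene of high basal level (11.30, 11.28 and 11.28 in WTp53 cells, against 10.20, 10.21 and 10.26 in vector cells; it was chosen after its values were seen). The fall belonged to RCHY1, a ubiquitin ligase also known as PIRH2 that targets p53: it read 8.67, 8.68 and 8.71 in WTp53 cells, against 8.84, 8.88 and 8.93 in vector cells (−0.20 ± 0.04, limma adjusted p = 0.0045). PHLDA3, GTSE1 and CCNG2 were not called, with differences of 0.11, −0.05 and 0.01.

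**Figure D1:**
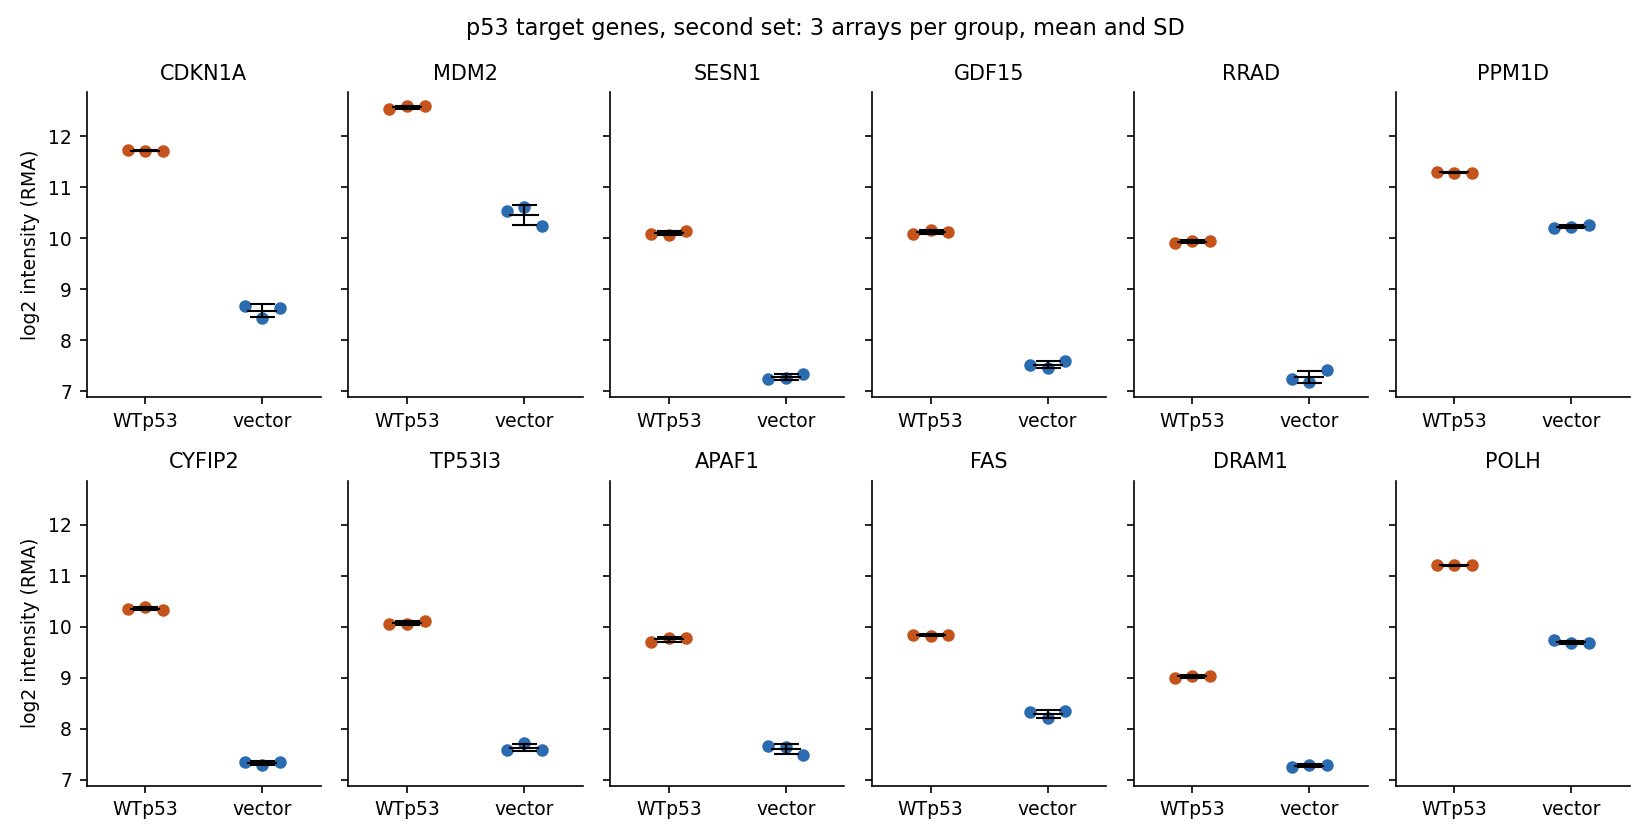
Levels of 12 p53 target genes in the second set, with log2 RMA intensity on the y axis; points are the 3 arrays of WTp53 cells (left in each panel) and of vector cells (right), and bars are the mean and SD. In every panel the 3 WTp53 points lie above the 3 vector points; MDM2 has the widest vector spread, from 10.23 to 10.61.

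Of 27 measured p53 targets of apoptosis, 23 were higher and 0 lower (limma), with a median difference of 0.79 and with no gene below −0.04. CYFIP2, a p53-inducible protein of the actin-regulating WAVE complex, read 10.35, 10.38 and 10.33 in WTp53 cells, against 7.35, 7.29 and 7.35 in vector cells. It had the smallest p of all probe sets (3.02 ± 0.04, limma adjusted p = 1.11e-07). TP53I3, a quinone oxidoreductase, read 10.05, 10.06 and 10.11 in WTp53 cells, against 7.59, 7.71 and 7.58 in vector cells (2.45 ± 0.05). APAF1, the scaffold of the apoptosome that activates caspase-9, read 9.70, 9.78 and 9.78 in WTp53 cells, against 7.67, 7.65 and 7.49 in vector cells (2.15 ± 0.06). These genes were near the middle of the array's range without p53 and more than 2 log2 units above it with p53. FAS, a death receptor, was higher by 1.54 ± 0.05, and PMAIP1, the BH3-only protein Noxa, by 1.5 ± 0.04 from a vector level already at 10.67 to 10.78 (limma adjusted p at most 1.3e-06 for these 5 genes).

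The size of the rise differed widely among apoptosis genes, as examples chosen after their values were seen show. BAX, the pore-forming effector, read 9.88 on all 3 WTp53 arrays, against 9.46, 9.35 and 9.47 in vector cells, a rise of 0.45 ± 0.04. TNFRSF10B, the TRAIL receptor DR5, read 10.11 on all 3 WTp53 arrays, against 9.70, 9.69 and 9.68 in vector cells, a rise of 0.42 ± 0.03. Both were small next to APAF1 but lay wholly outside the spread of the arrays. BBC3, the BH3-only protein PUMA, read 8.18, 8.18 and 8.24 in WTp53 cells, against 7.99, 8.18 and 7.92 in vector cells; the groups touch, and its difference of 0.17 ± 0.07 was not called (limma adjusted p = 0.0904). STEAP3, CASP10 and PLAGL1 were not called either, with differences of 0.10, 0.12 and −0.04.

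Among 23 measured p53 targets in repair, metabolism and redox control, 15 were higher and 3 lower with a median difference of 0.75. DRAM1, a lysosomal membrane protein that promotes autophagy, read 9.0, 9.04 and 9.03 in WTp53 cells, against 7.25, 7.29 and 7.29 in vector cells (1.75 ± 0.03). POLH, the translesion polymerase that copies past ultraviolet damage, read 11.20, 11.21 and 11.20 in WTp53 cells, against 9.73, 9.67 and 9.68 in vector cells (1.51 ± 0.03). Both groups were tight, and they did not overlap. CMBL, a hydrolase, and RRM2B, the p53-inducible subunit of ribonucleotide reductase, were higher by 1.15 ± 0.04 each, and PANK1, which starts coenzyme A synthesis, by 1.09 ± 0.04 (limma adjusted p at most 3.2e-06 for these 5 genes).

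The 3 that fell did so by little. FANCC, a Fanconi anaemia core protein, read 7.83 on all 3 WTp53 arrays, against 8.03, 7.98 and 8.13 in vector cells (−0.22 ± 0.04, limma adjusted p = 0.00696). REV3L, the catalytic subunit of translesion polymerase zeta, differed by −0.17 ± 0.05 (limma adjusted p = 0.0244), and LPIN1, a phosphatidate phosphatase, by −0.16 ± 0.05 (adjusted p = 0.0313). Leaving out WTp53 array d or f, or vector array d or e, left 1 of the 3 falls, with the calls of REV3L and LPIN1 lost. SPATA18, CPT1C, GPX1, ALDH4A1 and SCO2 were not called, with differences from −0.18 to −0.01.

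The 15 largest rises held 6 p53 list genes and 9 others. FAM13C, a protein with no role stated here, was the largest of all: it read 9.62, 9.70 and 9.62 in WTp53 cells, against 6.41, 6.22 and 6.27 in vector cells (3.35 ± 0.06, limma adjusted p = 3.33e-07). KITLG, the ligand of the KIT receptor, read 8.36, 8.40 and 8.44 in WTp53 cells, against 5.70, 5.21 and 5.51 in vector cells (2.93 ± 0.11). PDE3A, a phosphodiesterase that degrades cyclic AMP, read 8.52, 8.54 and 8.54 in WTp53 cells, against 5.74, 5.74 and 5.58 in vector cells (2.85 ± 0.05). All 3 were among the dimmer genes in vector cells and well above the array median with WTp53. CCNA1, a cyclin first known from male germ cells, was higher by 2.83 ± 0.08, and SLC4A11, a membrane transporter, by 2.62 ± 0.05. The remaining 4 of the 9, namely CCL5, IFI44L, CXCL10 and IFITM1, are inducible by interferon and are described with the interferon-stimulated genes.

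Promoter sequences (250 bases before to 50 after the annotated start, RefSeq, GRCh38.p14) were searched on both strands for the p53 response element. A single 10-base unit of it, here called the p53 decamer, occurred in 6.54% of 27305 promoters. It was found in 1 of 23 promoters available for the arrest list, 3 of 21 for the apoptosis list and 2 of 19 for the repair list. A pair of decamers at most 13 bases apart was found in 8 promoters of the table (0.0293%) and in 0 of these lists. No match says only that these letters are not in this window. Of the 11 promoters available for the 15 largest rises, 2 held a decamer; PDE3A is shown because its match lies upstream of the start (beginning 27 bases before it), with the decamer in capitals (chr12:20571979-20572078, plus strand).
PDE3A: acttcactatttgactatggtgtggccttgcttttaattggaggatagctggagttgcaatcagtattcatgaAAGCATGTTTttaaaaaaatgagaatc
A match is a description of the sequence and not a site bound by p53.

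Interferon-stimulated genes rose as broadly as the p53 targets: of 27 measured, 24 were higher, 0 were lower, and the median difference was 1.36. Like the others, this list was chosen with earlier results of these data known. Its genes encode antiviral effectors and sensors and are normally switched on when interferon or foreign nucleic acid is detected. OAS2, an enzyme that makes the messenger of the RNase L pathway, read 9.26, 9.29 and 9.36 in WTp53 cells, against 7.02, 6.88 and 6.94 in vector cells (2.36 ± 0.05, limma adjusted p = 4.2e-07). IFIT1, which binds foreign RNA ends, read 11.39, 11.47 and 11.45 in WTp53 cells, against 9.66, 9.53 and 9.67 in vector cells (1.82 ± 0.05). IFI44L read 9.85, 10.03 and 9.81 in WTp53 cells, against 7.10, 6.70 and 6.71 in vector cells, and had the largest rise of the list (3.06 ± 0.12, limma adjusted p = 3.03e-06). The groups were separate in each case. IFIT3 was higher by 1.91 ± 0.05, IFIT2 by 1.76 ± 0.04, and TAP1, a peptide transporter of antigen presentation and also a reported p53 target, by 1.54 ± 0.04. Not called were IRF9, a DNA-binding subunit of the interferon-activated factor (0.19, limma adjusted p = 0.0692), and the antiviral GTPases MX1 and MX2 (0.01 and 0.10), which stood between 5.6 and 5.86 on all 6 arrays.

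The chemokines CCL5 and CXCL10 and the membrane protein IFITM1, all inducible by interferon, were also higher. CCL5 read 9.45, 10.05 and 9.75 in WTp53 cells, against 6.47, 6.70 and 6.59 in vector cells (3.16 ± 0.14, limma adjusted p = 6.08e-06). CXCL10 read 7.70, 8.15 and 7.85 in WTp53 cells, against 5.04, 4.81 and 5.27 in vector cells (2.86 ± 0.14). IFITM1 read 9.68, 10.34 and 9.70 in WTp53 cells, against 7.34, 7.25 and 7.29 in vector cells (2.61 ± 0.17). WTp53 array e was the highest of the group for all 3 genes, and the median level of the interferon list was also highest there: 9.40, 9.61 and 9.49 in WTp53 arrays d, e and f, against 8.10, 7.95 and 8.11 in the vector arrays. Leaving out any single array left 23 to 25 list genes higher, whereas a fit whose spread was shared with all 18 arrays called 5. In the first set the list median was 8.25 with WTp53 and 8.72 with the vector in experiment 0. In experiments 4 and 5 it was 6.18 to 6.62. The median SD of any probe set in the first set was 0.109 with WTp53 and 0.104 with the vector. The part of either in the lost calls was not tested. Beside the interferon genes, of 9 leukocyte markers, CD68 and CD79A were higher, ITGAM and CD14 were lower, and PTPRC differed by 0.03. The part of these markers in the result was not tested.

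Of 21 inflammatory secreted factors, 6 were higher (28.6%, against 18.4% of all probe sets) and 0 lower by limma, with a median difference of 0.01; with each array centred on its median, 5 were higher and 1 lower, and the median was −0.03. Beside CCL5, the called genes with the smallest p were LIF, a cytokine of the interleukin-6 family and a known p53 target (1.36 ± 0.07), the urokinase PLAU (0.65 ± 0.05), the collagenase MMP1 (0.56 ± 0.05) and the urokinase receptor PLAUR (0.31 ± 0.04). IL6 read 5.59, 5.47 and 5.28 in WTp53 cells, against 5.72, 5.56 and 5.56 in vector cells, and CXCL8 read 6.35, 6.16 and 6.14, against 6.25, 6.19 and 6.20; neither was called, and both were chosen after their values were seen.

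The promoters of the interferon list were searched for the core of the interferon-stimulated response element, spelled GAAA, any 2 bases and GAAA again. It occurred in 16 of 22 available promoters (72.7%), against 3.65% of all promoters. The stretches below show the 3 list genes with the smallest p that hold it upstream of the start, followed by the 3 that hold it among the largest rises; capitals mark every match, and a match on the other strand reads TTTC, any 2 bases and TTTC. The sequences run 5′ to 3′ along the gene: TAP1 at chr6:32853778-32853877 (minus strand), IFIT3 at chr10:89327830-89327929 (plus), IFIT1 at chr10:89392475-89392574 (plus), IFI44L at chr1:78620330-78620429 (plus), CXCL10 at chr4:76023648-76023747 (minus) and IFITM1 at chr11:313940-314039 (plus).
TAP1: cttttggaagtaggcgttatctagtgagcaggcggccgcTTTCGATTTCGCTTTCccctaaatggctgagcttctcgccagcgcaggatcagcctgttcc
IFIT3: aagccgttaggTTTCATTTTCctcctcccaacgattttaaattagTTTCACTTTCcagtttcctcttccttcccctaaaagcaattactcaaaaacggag
IFIT1: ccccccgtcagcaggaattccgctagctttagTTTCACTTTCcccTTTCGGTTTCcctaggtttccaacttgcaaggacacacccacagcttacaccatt
IFI44L: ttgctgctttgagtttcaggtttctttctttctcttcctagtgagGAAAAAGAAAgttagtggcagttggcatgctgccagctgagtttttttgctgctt
CXCL10: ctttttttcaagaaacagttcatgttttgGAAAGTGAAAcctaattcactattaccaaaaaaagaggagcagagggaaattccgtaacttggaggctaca
IFITM1: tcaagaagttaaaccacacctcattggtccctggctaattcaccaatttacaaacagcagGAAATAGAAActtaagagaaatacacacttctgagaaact
TAP1, IFIT3 and IFIT1 each carry a pair of matches, and MX1, which was not called, also holds one in its window.

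Genes of glycolysis and the hypoxia response also rose: 18 of 23 were higher and 1 was lower, with a median difference of 0.41. SLC2A1, the glucose transporter GLUT1, read 11.53, 11.59 and 11.53 in WTp53 cells, against 10.75, 10.65 and 10.68 in vector cells (0.86 ± 0.04, limma adjusted p = 7.51e-06). BNIP3, a mitophagy receptor induced by hypoxia, read 12.43, 12.55 and 12.37 in WTp53 cells, against 11.38, 11.42 and 11.34 in vector cells (1.07 ± 0.05). ENO2, an enolase, read 9.91, 10.28 and 10.11 in WTp53 cells, against 8.97, 8.93 and 9.0 in vector cells (1.13 ± 0.09). The groups did not overlap, and the WTp53 arrays spread more than the vector arrays in ENO2. PDK1, the kinase that holds pyruvate dehydrogenase off, was higher by 0.84 ± 0.05, and PFKFB3, which makes the activator of phosphofructokinase, by 0.76 ± 0.04. The fall was PFKM, the muscle type of phosphofructokinase (−0.34), and VEGFA, ALDOC, EGLN3 and GAPDH were not called, with differences of 0.02 to 0.10. Of 21 available promoters, 9 (42.9%) held ACGTG, the core of the hypoxia response element, against 21.6% of all promoters.

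**Figure D2:**
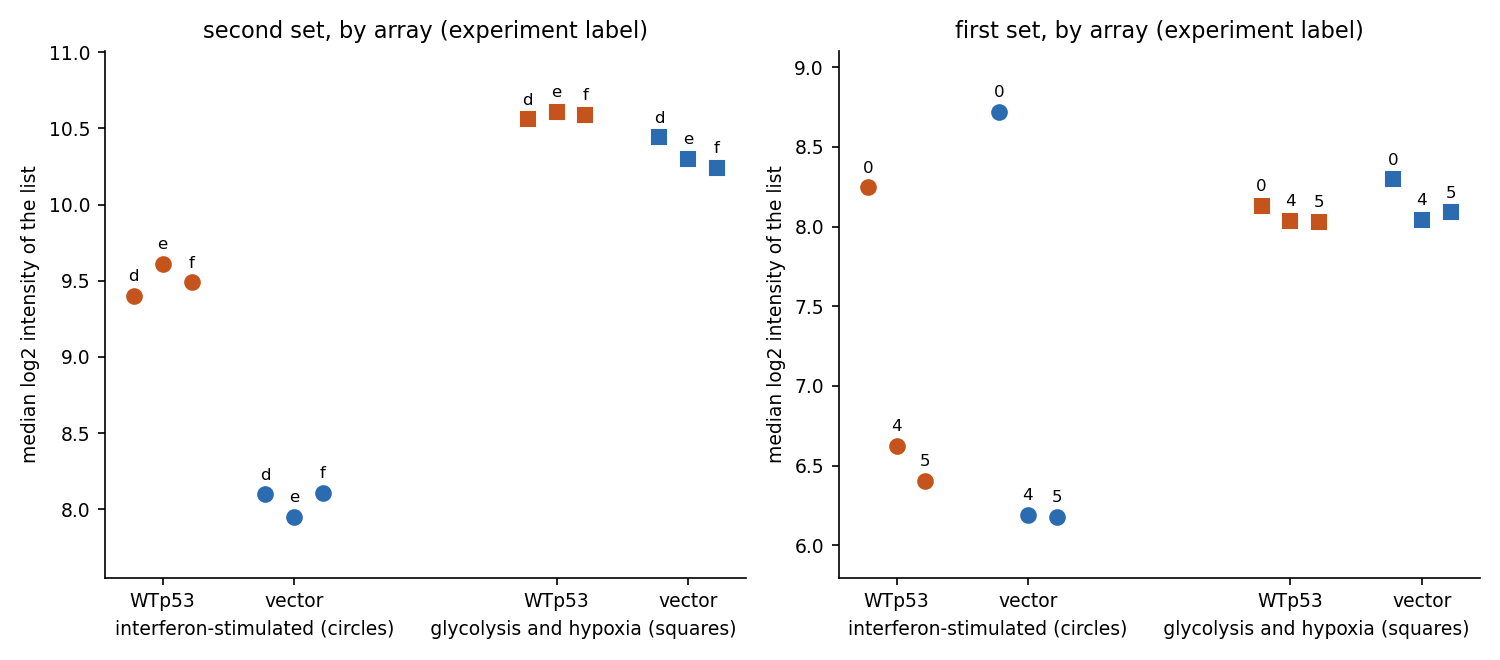
Median log2 intensity of the interferon-stimulated genes (circles) and of the glycolysis and hypoxia genes (squares) on each array of WTp53 cells (left) and vector cells (right), for the second set (left panel) and the first set (right panel, normalized separately, so the panels have their own scales). In the second set the interferon median was 9.40 to 9.61 in WTp53 arrays and 7.95 to 8.11 in vector arrays; in the first set both arrays of experiment 0 stand high, at 8.25 and 8.72.

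Cell cycle genes were lower, and the falls were smaller than the rises of p53 targets. Of 29 mitosis genes, 15 were lower and 1 higher (median −0.18), and of 29 genes of S phase entry and DNA replication, 18 were lower and 2 higher (median −0.21). In bulk samples, fewer cells in a phase and less RNA per cell cannot be told apart. CENPF, a kinetochore protein, read 9.05, 9.09 and 9.11 in WTp53 cells, against 9.77, 9.87 and 9.81 in vector cells (−0.73 ± 0.04, limma adjusted p = 1.25e-05). TOP2A, the topoisomerase that untangles chromosomes, read 9.23, 9.29 and 9.26 in WTp53 cells, against 9.85, 9.83 and 9.81 in vector cells (−0.57 ± 0.03). Both fell clear of the spread, as did CENPE, a kinetochore motor (−0.79 ± 0.06), CDC25C, the phosphatase that activates CDK1 (−0.55 ± 0.04), and KIF11, the spindle motor Eg5 (−0.46 ± 0.03). Other mitotic regulators, chosen after their values were seen, were not called: PLK1 read 12.03, 12.05 and 12.08 in WTp53 cells, against 12.03, 12.13 and 12.22 in vector cells, and CDC20 and AURKA differed by −0.03 and −0.01. PTTG1, securin, was the gene that rose (0.33).

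In the S phase list, CCNE2, a cyclin that drives entry into S phase, read 9.17, 9.13 and 9.13 in WTp53 cells, against 9.74, 9.73 and 9.68 in vector cells (−0.57 ± 0.03, limma adjusted p = 2.02e-05). Its relative CCNE1 went the other way and read 10.09, 10.05 and 10.17 in WTp53 cells, against 9.32, 9.09 and 9.27 in vector cells (0.88 ± 0.07, limma adjusted p = 5.4e-05). The 2 cyclins E thus changed in opposite directions on the same arrays. CDC6, which loads the replicative helicase, was lower by a log2 difference of −0.53 ± 0.04, the primase subunit PRIM1 by −0.56 ± 0.04 and the catalytic subunit of polymerase alpha, POLA1, by −0.54 ± 0.04. The other rise was TYMS, thymidylate synthase (0.13). PCNA, the sliding clamp of replication and a p53 target on the repair list, read 10.48, 10.50 and 10.46 in WTp53 cells, against 9.75, 9.62 and 9.64 in vector cells, a rise of 0.81 ± 0.04; it was chosen after its values were seen.

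Genes of homologous recombination and the Fanconi pathway were lower in 13 of 18 cases and higher in 0 (median −0.33). BRCA1 read 7.68, 7.76 and 7.76 in WTp53 cells, against 8.37, 8.45 and 8.39 in vector cells (−0.67 ± 0.04, limma adjusted p = 2e-05). The other falls with the smallest p were BLM, a RecQ helicase (−0.59), XRCC2, a recombination protein (−0.67), FANCM, a translocase that recognises stalled forks (−0.84), and BRIP1, a BRCA1-associated helicase (−0.47). The arrays of the 2 groups were separate in all 5, as they were for 7347 of the 7369 called probe sets. In a fit whose spread was shared with all 18 arrays, 1 mitosis gene, 3 S phase genes and 2 recombination genes were called lower.

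Replication-dependent histone genes, whose messages are made in S phase, had the lowest median of the lists: 22 of 25 were lower and 0 higher, with a median difference of −0.62. H3C2 read 10.76, 10.85 and 10.74 in WTp53 cells, against 11.99, 11.96 and 12.01 in vector cells (−1.20 ± 0.04, limma adjusted p = 2.12e-06). Outside the list, H4C2 was the largest fall of the comparison and read 9.06, 9.06 and 8.95 in WTp53 cells, against 11, 11.44 and 11.55 in vector cells (−2.31 ± 0.13). H3C7 read 9.16, 9.20 and 9.01 in WTp53 cells, against 10.82, 11.39 and 11.41 in vector cells (−2.08 ± 0.15). In both, vector array d was the lowest of its group and still far above the WTp53 arrays. H4C4, H2BC7 and H4C3 were lower by log2 differences of −1.47, −1.39 and −1.28. Histone genes of one type are near-identical copies, so a probe set may also report its relatives. H1-1, H3C3 and H2AC11 were not called, with differences of −0.25, −0.19 and 0.12.

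Mitotic promoters were searched for TTTGAA, the cell cycle genes homology region bound by p21-dependent repressor complexes, and S phase promoters for TTTGGCGC or TTTCGCGC, forms of the E2F site. TTTGAA occurred in 13 of 23 mitosis promoters (56.5%), against 15.4% of all promoters, and an E2F form in 11 of 24 S phase promoters (45.8%), against 1.18%. TTTGAA and the interferon motif share the letters GAA, so their matches can overlap. The first 3 genes by p with a match upstream of the start are shown for each motif, with matches on either strand in capitals: TOP2A at chr17:40417995-40418094 (minus strand), KIF11 at chr10:92593030-92593129 (plus), ECT2 at chr3:172750564-172750663 (plus), POLA1 at chrX:24693735-24693834 (plus), MCM6 at chr2:135876476-135876575 (minus) and E2F2 at chr1:23531234-23531333 (minus).
TOP2A: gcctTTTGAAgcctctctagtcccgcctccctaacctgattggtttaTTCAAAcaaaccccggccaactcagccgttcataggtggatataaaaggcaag
KIF11: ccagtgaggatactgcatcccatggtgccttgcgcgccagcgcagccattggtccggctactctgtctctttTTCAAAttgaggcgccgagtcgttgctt
ECT2: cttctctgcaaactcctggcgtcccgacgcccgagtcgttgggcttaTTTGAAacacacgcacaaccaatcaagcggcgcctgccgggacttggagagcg
POLA1: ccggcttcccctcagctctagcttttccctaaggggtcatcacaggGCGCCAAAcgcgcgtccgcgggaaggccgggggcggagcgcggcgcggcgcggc
MCM6: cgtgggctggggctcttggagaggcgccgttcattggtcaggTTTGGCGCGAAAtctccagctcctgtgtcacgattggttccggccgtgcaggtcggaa
E2F2: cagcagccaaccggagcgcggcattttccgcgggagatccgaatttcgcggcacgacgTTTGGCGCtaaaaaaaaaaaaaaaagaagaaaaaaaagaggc
All 6 genes were lower with WTp53, with log2 differences of −0.57 to −0.30; PLK1 and CDC20, which were not called, hold TTTGAA as well.

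**Figure D3:**
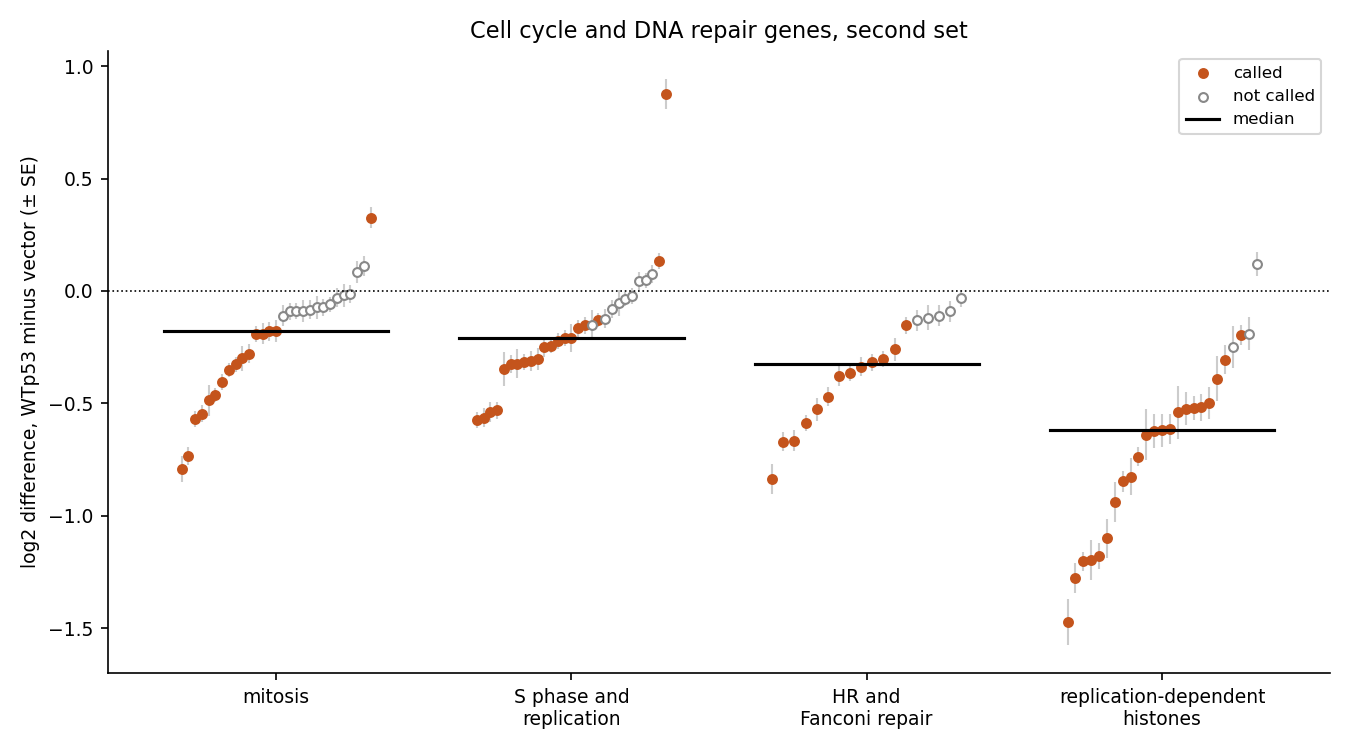
Log2 difference, WTp53 minus vector, with its SE, for each measured gene of 4 lists in the second set; filled points were called at a limma adjusted p under 0.05, open points were not, and lines are list medians. The medians step down from −0.18 for mitosis to −0.62 for the histones, and CCNE1 stands alone at 0.88.

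Zinc finger genes made up much of the rest of the largest falls. Genes whose symbol is ZNF and a number totalled 494. Of these, 247 were lower (50%, against 19.5% of all probe sets) and 59 higher (11.9%, against 18.4%), with a median of −0.19. On chromosome 19, where many such genes of the KRAB repressor family lie in clusters, 155 of 237 were lower (65.4%) and 22 higher (9.28%). The median there was −0.38. On other chromosomes 92 of 257 were lower (35.8%) and 37 higher (14.4%), with a median of −0.09. Genes of chromosome 19 without such a symbol numbered 1071, of which 115 were lower (10.7%) and 189 higher (17.6%). With each array centred on its median, 198 were lower and 153 higher. ZNF221 read 7.69, 7.70 and 7.90 in WTp53 cells, against 9.56, 9.58 and 9.55 in vector cells (−1.80 ± 0.06, limma adjusted p = 1.93e-06). ZNF829 read 8.89 on all 3 WTp53 arrays, against 10.21, 10.24 and 10.21 in vector cells (−1.33 ± 0.03). In both, every WTp53 array lay more than 1 log2 unit below every vector array. ZFP30, ZNF582, ZNF542P, ZNF607 and ZNF583 were also among the 15 largest falls, by log2 differences of −1.60 to −1.29. Zinc finger genes share sequence, so single values are less certain than the count.

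The other large falls were of varied kinds. ANKRD1, a nuclear ankyrin-repeat protein and a target of the YAP coactivator, read 9.0, 8.91 and 8.93 in WTp53 cells, against 10.57, 10.50 and 10.52 in vector cells (−1.58 ± 0.04, limma adjusted p = 7.25e-07). CALHM4, a channel family member, read 5.50, 5.43 and 5.54 in WTp53 cells, against 7.31, 7.28 and 7.26 in vector cells (−1.79 ± 0.04). CIART, a repressor of the circadian clock, and ARL14, an ARF-like GTPase, were lower by log2 differences of −1.57 ± 0.05 and −1.38 ± 0.08. That none of the 4 had overlapping groups follows from the rule that chose the largest falls. ANKRD1 did not speak for the YAP and TEAD list. Of its 20 genes, 9 were lower (45%, against 19.5% of all probe sets) and 6 higher (30%, against 18.4%), with a median of −0.07. The 6 became 3 without vector array d and 3 with each array centred on its median. TEAD1 and AMOTL2 fell (−0.58 and −0.47), WWTR1, which encodes the coactivator TAZ, and NT5E rose (0.55 and 0.41), and YAP1 itself read 10.84, 10.85 and 10.78 in WTp53 cells, against 10.81, 10.79 and 10.82 in vector cells.

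**Figure D4:**
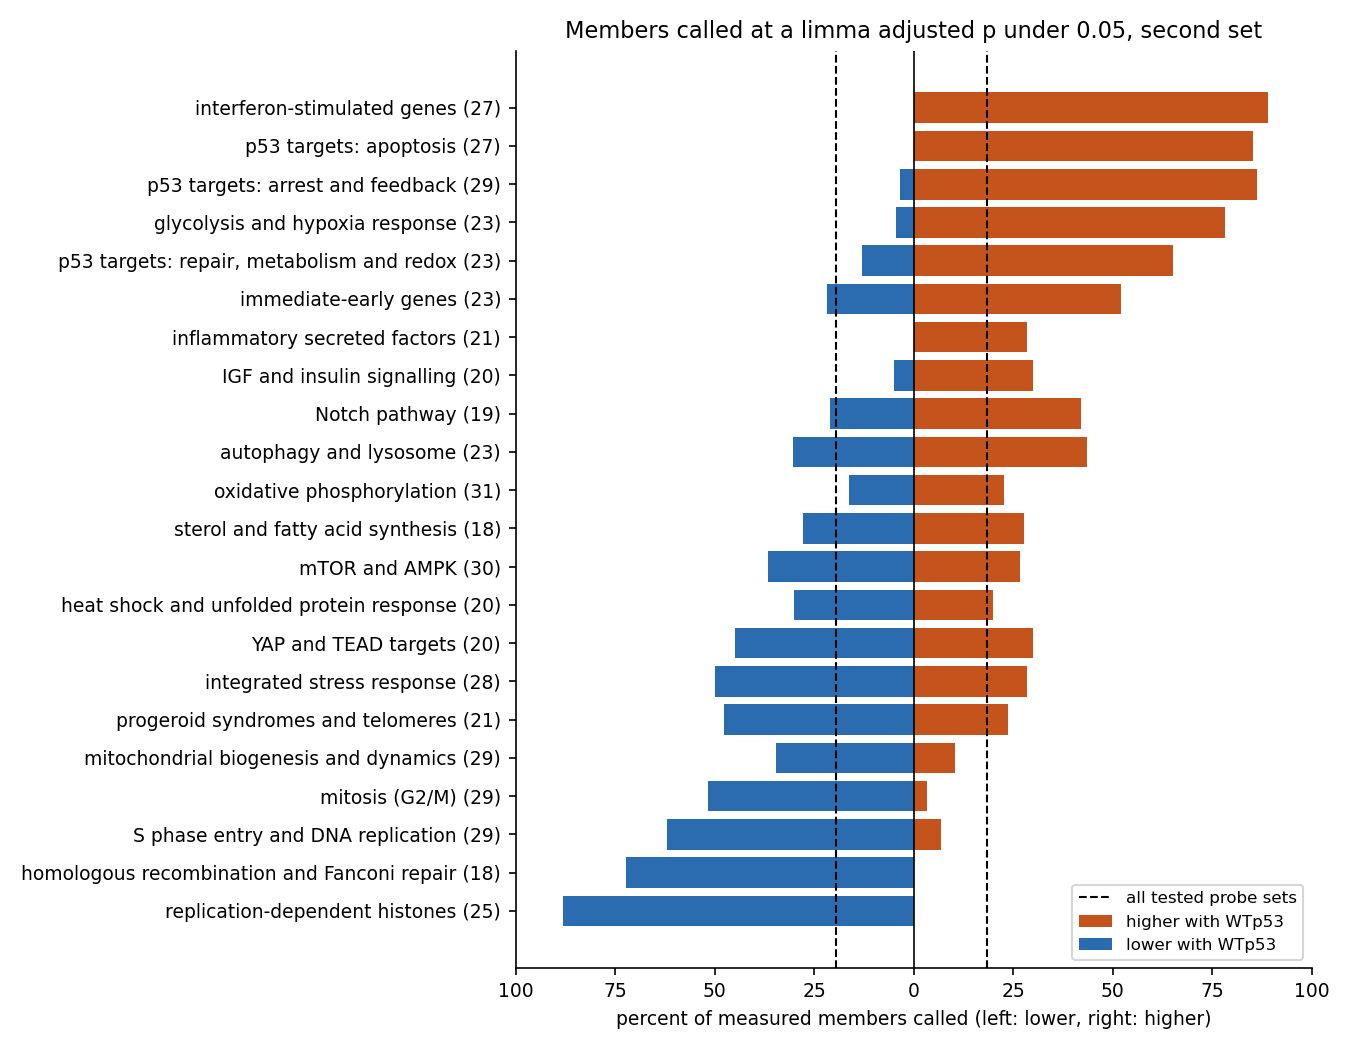
Percent of the measured members of each gene list (number in brackets) called higher (right of 0) or lower (left of 0) with WTp53 in the second set; dashed lines mark the shares over all tested probe sets, 18.4% higher and 19.5% lower. The interferon, p53 target and glycolysis lists lie furthest to the right, and the histone and recombination lists furthest to the left.

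Stress lists split within themselves. The integrated stress response is the programme that ATF4 runs when amino acids or folding fail. Of 28 listed genes, 14 were lower (50%, against 19.5% of all probe sets) and 8 higher (28.6%, against 18.4%), with a median of −0.12. DDIT3, the factor CHOP, read 10.38, 10.46 and 10.28 in WTp53 cells, against 11.62, 11.48 and 11.65 in vector cells (−1.21 ± 0.06, limma adjusted p = 1.13e-05). SLC7A11, the cystine importer that p53 is known to repress, read 9.83, 9.83 and 9.79 in WTp53 cells, against 10.67, 10.74 and 10.65 in vector cells (−0.87 ± 0.04). CTH, a cysteine-making enzyme, was lower too (−0.82), while DDIT4, an mTOR inhibitor on the p53 list as well, and ALDH1L2, a mitochondrial folate enzyme, were higher (1.37 and 1.18). ATF4 itself read 11.56, 11.57 and 11.61 in WTp53 cells, against 11.66, 11.53 and 11.59 in vector cells. Of 20 heat shock and unfolded protein genes, 4 were higher (20%, near the 18.4% of all probe sets) and 6 lower (30%, against 19.5%). The rises were led by HSPB1, a small heat shock protein (0.82), and EDEM1, which clears misfolded glycoproteins (0.65). The falls were led by the sensor ATF6 (−0.53), and the median was −0.03.

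Growth signalling genes were mixed. Among 20 IGF and insulin genes, 6 were higher (30%, against 18.4% of all probe sets) and 1 lower (5%, against 19.5%). PIK3R1 and PIK3R3, regulatory subunits of phosphoinositide 3-kinase, rose by 1.16 ± 0.05 and 0.77 ± 0.04. IGF1R rose by 0.70 ± 0.06 and AKT1 by 0.28 ± 0.04, while the kinase PDPK1 fell (−0.24). The list median was 0.03, and −0.01 with each array centred on its median, when 3 were lower; 2 were lower without vector array e or f. Of 30 mTOR and AMPK genes, 8 were higher (26.7%) and 11 lower (36.7%). The rises were led by SESN1, DDIT4 and the AMPK subunit PRKAB1 (0.71). The falls were led by FNIP1, the partner of folliculin (−0.96), and the AMPK catalytic subunit PRKAA2 (−0.77). MTOR read 9.86, 9.80 and 9.85 in WTp53 cells, against 10.27, 10.27 and 10.24 in vector cells, a fall of a log2 difference of −0.42 chosen after its values were seen.

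Notch ligands and receptors moved upward in part. Of 19 genes, 8 were higher (42.1%, against 18.4% of all probe sets) and 4 lower (21.1%, near the 19.5% of all probe sets). The median was 0.15. JAG2, a ligand, read 9.97, 10.00 and 10.04 in WTp53 cells, against 7.94, 8.0 and 7.95 in vector cells (2.04 ± 0.04, limma adjusted p = 3.33e-07). The ligand JAG1 rose by 0.92 ± 0.04, the receptor NOTCH1 by 0.98 ± 0.05 and the target HEYL by 0.79 ± 0.06, and the coactivator MAML2 fell (−0.81). Immediate-early genes, the first wave of growth factor signalling, rose in 12 of 23 cases (52.2%) and fell in 5 (21.7%), with a median of 0.15. EGR1 read 11.31, 11.23 and 11.37 in WTp53 cells, against 12.29 on all 3 vector arrays (−0.99 ± 0.04, limma adjusted p = 5.13e-06). JUN, FOSB and KLF6 fell with EGR1 (−0.59, −0.72 and −0.66), and NR4A2, an orphan nuclear receptor, rose by 1.45 ± 0.05.

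Lists of basal metabolism held few large differences. Of 31 oxidative phosphorylation genes, 7 were higher and 5 lower (median −0.00), shares of 22.6% and 16.1% near those of all probe sets, with COX15 and NDUFS1 lowest (−0.37 and −0.35) and SDHA highest (0.44). With each array centred on its median, 6 were higher and 8 lower. Of 29 genes of mitochondrial biogenesis and dynamics, 10 were lower (34.5%, against 19.5% of all probe sets) and 3 higher (10.3%, against 18.4%), with a median of −0.02. The falls were led by TFB1M, a mitochondrial ribosomal RNA methyltransferase (−0.65), the import protein TIMM44 (−0.61) and the fusion GTPase OPA1 (−0.51). Without WTp53 array d, 1 was higher. Of 23 autophagy and lysosome genes, 10 were higher (43.5%, against 18.4% of all probe sets) and 7 lower (30.4%, against 19.5%). With each array centred on its median, 7 were higher and 8 lower. After DRAM1, the genes with the smallest p were the kinase ULK1 (0.35), ATG2B (−0.38), the lysosomal regulator TFEB (0.32) and the protease CTSB (0.59). Of 18 sterol and fatty acid genes, 5 were higher and 5 lower (27.8% each), none by more than 0.30. With each array centred on its median, 4 were higher and 7 lower. Of 21 genes of progeroid syndromes and telomeres, 10 were lower (47.6%) and 5 higher (23.8%, against 18.4% of all probe sets). The falls were led by ERCC4, a repair nuclease (−0.71), BLM and ATM (−0.57). The rises were led by LMNA, lamin A (0.59), and SPRTN, a protease for DNA-protein crosslinks (0.54). The 5 became 2 without WTp53 array d or e, 3 without WTp53 array f or vector array d or e, and 3 with median centring or quantile normalization.

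Some classes of small nuclear and nucleolar RNAs on the arrays rose more often than they fell. Of 61 SNORA genes, guides of pseudouridylation, 26 were higher (42.6%) and 6 lower (9.84%), with a median of 0.11. Of 16 SCARNA genes of Cajal bodies, 10 were higher (62.5%) and 1 lower (6.25%), with a median of 0.32. The shares over all probe sets were 18.4% and 19.5%. Of 115 SNORD genes, guides of ribose methylation, 27 were higher and 13 lower (median 0.07), and their share of rises, 23.5%, was near the 18.4% of all probe sets. Many sit in introns of host genes, so probes for them may also see host RNA. Of 361 olfactory receptor genes, which this line is not known to use, 3 were higher (0.83%) and 17 lower (4.71%). Of 10 markers of fibroblasts and endothelium, 7 of lung epithelium and 2 of epithelium in general, 0 were called. The smallest limma adjusted p was 0.0529, for the epithelial marker CDH1. CDH1 was called higher without WTp53 array d and in the fit of all 9 arrays of the second set. COL1A1 was called lower without WTp53 array d. COL1A1 and the lung epithelium marker AGER were called lower with median centring and with quantile normalization.

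The WTp53 effect was compared with that in the first set through the difference of the within-set differences, since the sets were normalized separately and levels cannot be set side by side. Across the 19460 probe sets the 2 effects correlated (Pearson 0.785, Spearman 0.650; probe sets of 1 array set share their arrays, and no p is given), with a slope of 0.48 of the second on the first. The effect was higher in the second set for 2026 probe sets (10.4%) and lower for 1796 (9.23%). In the p53 lists the effect was mostly lower in the second set where it differed: 10 of 29 arrest genes were lower and 1, GADD45B, higher, and 18 of 27 apoptosis genes and 8 of 23 repair genes were lower. The difference was −1.49 for CDKN1A (3.13 in the second set and 4.62 in the first, limma adjusted p = 0.00334), −1.30 for MDM2 (2.11 and 3.41, adjusted p = 0.000309) and −1.47 for FAM13C (3.35 and 4.82, adjusted p = 9.41e-05). PROKR1, a prokineticin receptor, differed by −1.75 (1.62 and 3.38).

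Several repressed lists also moved less: 12 of 29 S phase genes, 9 of 18 recombination genes and 9 of 25 histone genes had the higher, that is less negative, effect in the second set, and 0, 0 and 2 the lower. The mitosis list did not share this: 3 of 29 genes had a higher and 4 a lower effect, and its median effect was −0.18 in the second set and −0.08 in the first. Glycolysis and hypoxia genes went the other way. Their median effect was 0.41 in the second set and 0.05 in the first, and 8 of 23 had a higher effect in the second set and 1 a lower one. The 8 became 5 when the WTp53 or the vector array of experiment e or the WTp53 array of experiment 5 was left out, and 5 in the fit of all 18 arrays. PDK1 differed by 1.33 (0.84 in the second set and −0.49 in the first), HK2, a hexokinase, by 1.28 (0.73 and −0.55), SLC2A3, the transporter GLUT3, by 1.34 (0.99 and −0.35) and P4HA1, a collagen prolyl hydroxylase outside the list, by 1.83 (0.59 and −1.25, limma adjusted p = 3.15e-05). PFKFB3 was the exception with −0.96 (0.76 and 1.72).

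Interferon-stimulated genes had a median effect of 1.36 in the second set and 0.03 in the first, yet 1 of 27 genes, IRF9, passed the test of that difference (1.24, limma adjusted p = 0.024). In the first set the arrays of experiment 0 had a list median of 8.25 with WTp53 and 8.72 with the vector, whereas those of experiments 4 and 5 had 6.62 and 6.4 with WTp53 and 6.19 and 6.18 with the vector. With both arrays of experiment 0 left out, a setting chosen after seeing the data, 21 of 27 genes had a higher effect in the second set. With the experiment label of each set as a replicate block it was 20, and with the WTp53 array of experiment 0 alone left out it was 10. Leaving out any other single array gave 0 to 2, so that the call of IRF9 itself was not kept in every setting.

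**Figure D5:**
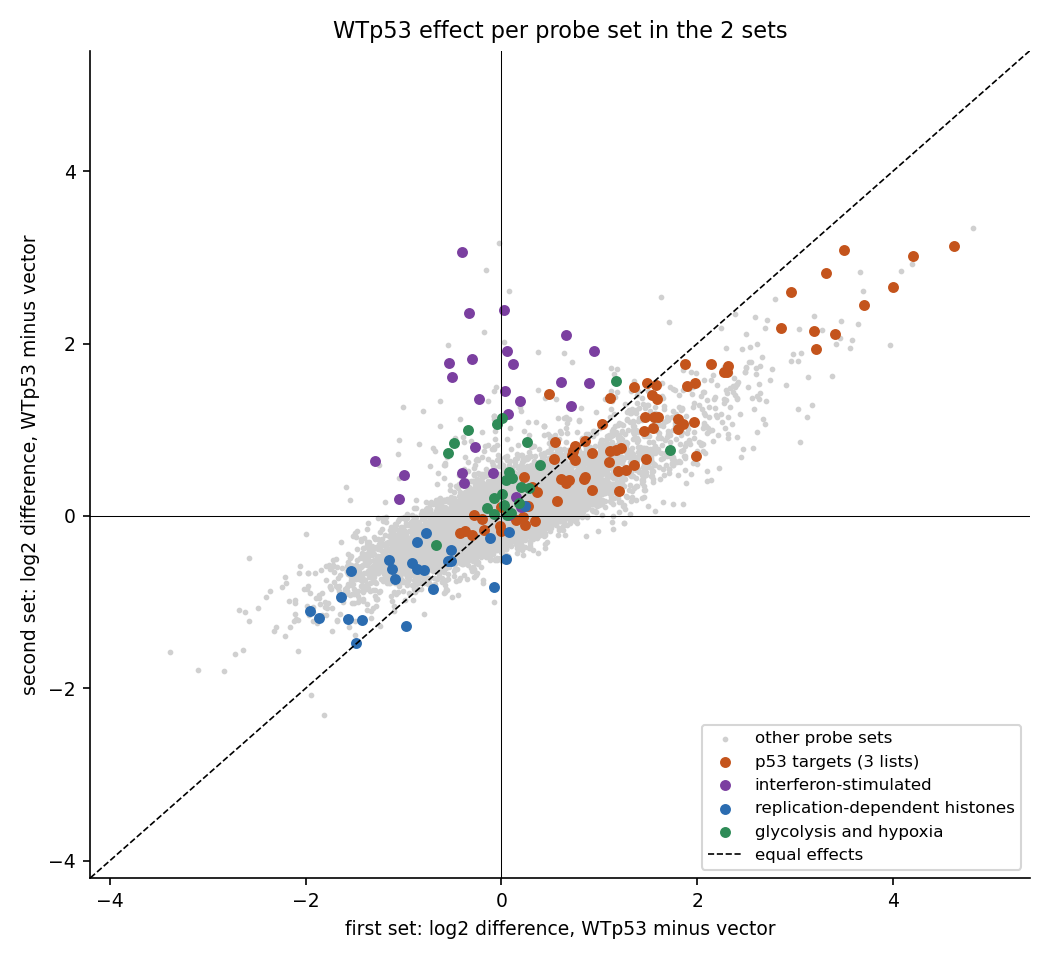
Log2 difference, WTp53 minus vector, of each probe set in the second set (y axis) against the first set (x axis); coloured points are members of the named lists and the dashed line marks equal effects. Most p53 targets lie below the line at the upper right, and the interferon genes lie high on the y axis near 0 on the x axis, with medians of 1.36 and 0.03.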

How the data were processed

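RNA of sorted NCI-H1299 cells was labelled with the Ambion WT Expression kit and hybridised to Affymetrix Gene arrays, per the labels' protocols. The deposited table holds log2 values made by the authors with RMA in Affymetrix Expression Console, per the submitters' processing notes; versions are not given in the sources used here. The 2 sets of arrays were normalized separately, so levels were compared only within a set. Array medians over all rows were 7.01 to 7.07 with 2 decimals, and 4.89 to 4.97 with 6 decimals. Intensity over background was not used here, so precision rests on how many arrays there were.

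Of 33297 rows, 19460 have 1 symbol in a probe annotation of 2016, 1754 have several and 12083 are not listed there; 19433 of the symbols were found in the current RefSeq gene table. Rows with 1 symbol were fitted with limma 3.58.1 in R 4.3.3 (lmFit and eBayes, 6 arrays, 4 residual degrees of freedom), with Benjamini-Hochberg adjustment over all 19460 and a threshold of 0.05. Errors of differences are limma's moderated SE. Where a gene has several probe sets, as 769 genes do, the one with the highest mean stands for it. The effects in the 2 sets were compared in a fit of 12 arrays with 4 group means and 8 residual degrees of freedom. The steps were tested on simulated data with independent noise of equal spread in all groups. That setting holds neither a shift shared by the arrays of an experiment nor the wider spread of the first set.

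Named genes are CDKN1A, MDM2, the 15 largest rises and falls without overlap, the top 5 of every list by p, p53 targets that fell, and the 5 smallest p of the comparison and of the difference between sets; other names were chosen after their values were seen. The 27 lists hold 610 entries, of which 566 were measured. Members and lists were chosen with earlier results of these data known. The labels give no pairing of arrays, so the letters were not used as a block. Same-lettered arrays of the second set also did not deviate together (residual correlations of −0.041, −0.002 and 0.085 for d, e and f). Experiments of the first set were not checked in this way, and the main comparison of the sets used no block either. Alternatives were other array sets in the fit, the letter as a replicate block, median centring, quantile normalization, a filter on dim probe sets, 1 probe set per gene, an intensity trend, all rows, and leaving out each array. Promoter sequences are from RefSeq.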

Additional observations from a re-analysis of the deposited data

Results flagged for a closer look

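The WTp53 effect differed between the second and the first set for 3822 of 19460 probe sets (limma test of the difference, adjusted p under 0.05). These results were picked out because the same contrast gave different effects in the 2 sets; all differences are the second set minus the first.

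Of the genes that WTp53 induced and that are named for this difference, 4 had a lower effect in the second set: the difference was −1.49 for CDKN1A, −1.30 for MDM2, −1.47 for FAM13C and −1.75 for PROKR1. Among glycolysis and hypoxia genes it was 1.34 for SLC2A3, 1.33 for PDK1, 1.28 for HK2, 1.13 for ENO2, 1.11 for BNIP3, 0.59 for SLC2A1, 0.43 for PGK1 and 0.37 for GPI, and −0.96 for PFKFB3. The calls of ENO2, PGK1 and GPI were lost when single arrays were left out, with limma adjusted p of up to 0.0699. The collagen hydroxylase gene P4HA1 had the smallest p, with a difference of 1.83. The small nucleolar RNA SNORA3A differed by 1.48 (0.44 in the second set and −1.05 in the first), and STX11, a syntaxin of immune cell secretion, by 1.19 (−0.02 and −1.21). The interferon factor gene IRF9 differed by 1.24 (0.19 and −1.05). Its call was also lost when single arrays were left out, with limma adjusted p of up to 0.0618. The sets differ in normalization and in the spread of their arrays as well as in their experiments, and these cannot be told apart.

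Rows without a single gene symbol were not used in the comparison. When all rows were fitted together, 2480 of 13837 such rows were called (17.9%), 989 higher and 1491 lower with WTp53.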

How the results depend on the processing

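Across the alternatives no named gene changed direction where it was called in the main fit or in the alternative. Uncalled genes near no difference, such as STX11, were not counted. In a fit that shares its spread with all 18 arrays, 2008 probe sets were higher, 1723 were lower and 2319 differed between the sets; there 1 mitosis gene, 3 S phase genes and 2 recombination genes were lower, and 5 interferon genes were higher. With the experiment letter as a replicate block, 3365 were higher and 3568 lower, although the letters did not pair the arrays; the call of LPIN1 was lost (adjusted p = 0.0673 from limma). Without both arrays of experiment 0, an alternative chosen after seeing the data, 6576 differed between the sets. Leaving out 1 array at a time gave 3045 to 3307 higher, 3178 to 3573 lower and 2487 to 5254 differing between the sets. The 5254 came without the WTp53 array of experiment 0, and 2487 and 2509 came without the vector or WTp53 array of experiment e. In the same settings 25 arrest, 22 to 23 apoptosis, 15 repair, 23 to 25 interferon and 17 to 18 glycolysis genes were higher, and 13 to 15 mitosis, 17 to 19 S phase, 12 to 14 recombination and 21 to 22 histone genes were lower. The causes of these changes were not tested. With 3 arrays a group, small differences such as those of REV3L and LPIN1 are not secure. Of the 143 named genes called in the main fit, 33 lost their call in the fit of all 18 arrays. They include large differences such as IFI44L (3.06, limma adjusted p = 0.134) and OAS2 (2.36, adjusted p = 0.122). BRCA1 (−0.67, adjusted p = 0.0622) and the falls of RCHY1 and FANCC also lost their call there. Between the sets, the calls of ENO2, PGK1 and GPI were lost in 6, 5 and 3 of the settings without 1 array. The call of IRF9 was lost in some of these settings too.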
